A study of Drosophila melanogaster with 4 samples.

Results

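The regions described here are all stretches of the fourth chromosome of Drosophila melanogaster that the authors listed as enriched for H3K79me1, the monomethylated form of lysine 79 of histone H3, in nuclei from adult heads. They were taken as every enriched row whose sequence is the fourth chromosome, whose length is 1351857 bp in FlyBase release 5, and no measured value entered that choice beyond the authors' own calls. The replicate 1 list held 68 such regions among 7603, the replicate 2 list 68 among 8137, and the list that the authors made from both replicates, called the combined list below, 79 among 12942. The flies were wild-type Oregon-R (Oregon-R-modENCODE), labelled as a mixed adult stage, raised in population cages, and their heads were collected with sieves. Chromatin fixed with formaldehyde was precipitated with lot 1 of an Abcam antibody to give 2 ChIP libraries, and genomic DNA of 2 input libraries served as their references. All 4 libraries share strain, genotype, stage and tissue, so the comparisons lie between replicates and between chromosomes. Each library pools many animals and all cell types of the head, and no label tells whether separate collections of flies stood behind the replicates, so their spread may be technical. The head origin cannot be checked against marker genes in lists of regions. A region carries the authors' score, here treated as log2, which serves only to rank regions within a list.

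The fourth is the small dot chromosome of the fly. This chromosome combines features of heterochromatin, including the protein HP1a, methylation of lysine 9 of histone H3 and many repeats, with a set of genes that are transcribed in this setting, and the protein POF, a marker of this chromosome, binds those genes. Genes that lie there include ey and toy, which encode Pax6 factors of eye development, ci, the transcription factor of Hedgehog signalling, pan, that of Wnt signalling, and bt, which encodes a giant muscle protein. H3K79 methylation is placed in the body of nucleosomes by Dot1, the product of grappa in flies, and typically marks the bodies of genes in use. Gene models and sequence of release 5 were not used here, so no region is assigned to a gene.

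The H3K79me1 regions listed on the fourth chromosome included wide domains and narrow regions, with long stretches in which no region was listed. Regions covered 22.6% of the chromosome in replicate 1 (305.6 kb) and 18.2% in replicate 2 (245.7 kb), with a mean of 20.4% ± 3.13 (SD, n = 2). The combined list covered 28.4% (384.0 kb). Of its 79 regions, 27 were under 2 kb wide. Another 35 were at least 5 kb wide, and these alone made up 76.0% of the list's length. Each of these 35 had a base in both replicate lists. Wide regions of the arms were also nearly always shared. In the replicate lists, 99.4% to 100% of regions of at least 5 kb on 2L, 3L and 3R had a base in the other replicate list.

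Widths and scores varied widely among the domains. Replicate 1 regions ranged from 1309 to 14567 bp with a median of 4293 bp, and replicate 2 regions from 1323 to 12540 bp with a median of 2736 bp. In the combined list the range was 1001 to 14285 bp and the median 3927 bp. The narrowest regions anywhere in the lists were 1301 bp in both replicates and 1001 bp in the combined list, so the lower ends lie close to the smallest widths that the authors listed. Log2 scores ran from 0.34 to 1.20 (replicate 1), from 0.25 to 1.00 (replicate 2) and from 0.24 to 1.70 (combined list). Score grew with width, at a Spearman's rho across regions of 0.78 for replicate 1, 0.69 for replicate 2 and 0.62 for the combined list, given as a description because regions of one library are not independent.

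Along the chromosome the covered share was highest in the window from 300001 to 400000. Of 14 windows of 100 kb, the last of which is 51.9 kb long, that one reached a covered share of 53.4% for replicate 1, 35.5% for replicate 2 and 64.7% for the combined list. Next in the combined list came the windows from 1200001 to 1300000 (46.9%) and from 900001 to 1000000 (44.2%), and the median over windows was 25.2%. The lowest were the 2 ends and one interior window. From 1 to 100000 replicate 1 covered 1.58% and the other lists nothing. Regions took up 3.96% of the last window in the replicate 1 list, 0.764% in that of replicate 2 and 6.26% in the combined one, and 8.95%, 3.84% and 10.2% of the window from 700001 to 800000. Replicate 1 covered more than replicate 2 in 12 of the 14 windows.

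**Figure D1:**
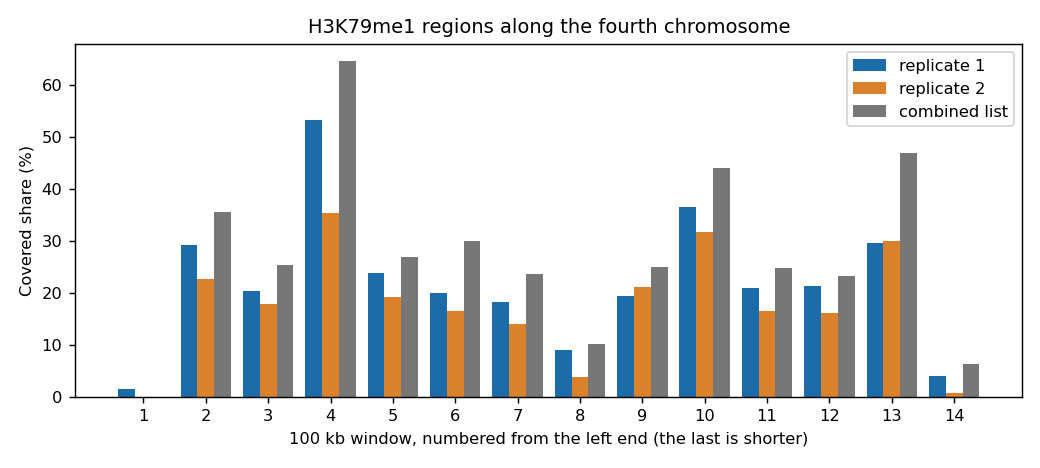
Covered share (%) of each 100 kb window of the fourth chromosome in the replicate 1, replicate 2 and combined lists, with windows numbered from the left end and the last one shorter. The fourth window stands highest in all 3 lists (53.4%, 35.5% and 64.7%), and windows 1, 8 and 14 are the lowest.

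When neighbouring combined regions less than 20 kb apart were grouped, a rule chosen after the positions had been seen, the 79 regions fell into 14 groups that together spanned 681.2 kb, or 50.4% of the chromosome. Within these spans 56.4% of the sequence was marked. The first group, from 101598 to 163316, held 6 combined regions, of which 3 were found in both replicates. Its domain from 117122 to 130972 (13851 bp, log2 score 0.58) held 3 regions of each replicate, over 84.6% of it in replicate 1 and 64.4% in replicate 2. Next to it, the domain from 134502 to 146730 (12229 bp, 0.66) was covered to 97.0% and 63.6%. A domain of 6277 bp from 157040 to 163316 closed the group, with 83.8% in replicate 1 and 94.3% in replicate 2.

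A second group from 203078 to 235936 held 5 combined regions, 3 of them in both replicates. Replicate 1 covered 98.9% and replicate 2 91.8% of its domain from 204934 to 212186, and 81.5% and 74.1% of that from 218170 to 224368. A single region of 1669 bp from 267924 to 269592, found in neither replicate, formed the third group. The fourth, from 289666 to 393524, was the most densely marked of the long groups that held more than 10 regions. It held 12 combined regions, 8 of them in both replicates and 3 in replicate 1 only, over 66.3% of 103.9 kb. Replicates agreed closely at its right end, where replicate 1 covered 92.0% and replicate 2 97.5% of the domain from 363090 to 373972, and 94.7% and 97.4% of the one from 381728 to 393524 (11797 bp, log2 score 0.85). They differed at the domain from 348222 to 360930 (12709 bp, log2 score 0.52), of which replicate 1 covered 93.2% and replicate 2 27.9%. In the domain from 304814 to 315124 (10311 bp, 0.50) the shares were 55.4% and 38.9%.

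In the centre of the chromosome, a group from 457614 to 502186 held 5 combined regions over 65.5% of its span. Its first domain, from 457614 to 463394, lay to 95.1% in replicate 1 and to 88.2% in replicate 2 regions and had a log2 score of 0.84, while its widest, from 492176 to 502186 (10011 bp, 0.56), was covered to 90.0% and 69.7%. The group from 526520 to 641616 was long and sparse, with 13 combined regions over 34.9% of 115.1 kb, the lowest share of the 14 groups. Of these regions 5 were found in both replicates and 5 in neither. Its highest-scoring domains were those from 565496 to 571054 (log2 score 0.82, covered to 99.8% and 93.3%) and from 633590 to 641616 (0.83, covered to 97.6% and 73.3%). A group from 670168 to 713740 followed, covered to 39.5% by replicate 1 and to 22.2% by replicate 2, in which the domain from 702004 to 709474 was covered to 99.3% and 51.3%.

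The domain from 799974 to 807440 stood alone, with 86.2 kb free of combined regions on its left and 68.5 kb on its right. It was 7467 bp wide, had a log2 score of 0.87, and lay to 89.5% in replicate 1 and to 92.4% in replicate 2 regions. The group from 875904 to 949902 held 7 combined regions over 71.7% of its span, all of them found in at least 1 replicate. It contained the domain from 875904 to 885732 (9829 bp, log2 score 0.92), in which each replicate had its highest-scoring region of the chromosome. In replicate 1 that was the stretch between 879742 and 885748 (1.20 on that list's scale), and in replicate 2 the one between 879880 and 885143 (1.00). At its right end lay the widest combined domain, from 935618 to 949902 (14285 bp, 0.82). The same domain was the widest region of each replicate, reaching from 935446 to 950012 (replicate 1) and from 936302 to 948841 (replicate 2), so that the replicate 2 region lay wholly inside that of replicate 1.

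Towards the right end the domains were again spaced apart. A group of 3 combined regions from 971782 to 986376 included one from 971782 to 976818 with a log2 score of 0.79. The group from 1032876 to 1070912 held a domain of 9019 bp from 1032876 to 1041894 (0.88, covered to 93.9% and 84.2%) and one of 13559 bp from 1057354 to 1070912 (0.59, covered to 87.8% and 63.6%), which was 1 region in replicate 1 and 3 in replicate 2. Replicate 1 covered 73.3% and replicate 2 84.8% of a lone region of 2455 bp from 1099542 to 1101996. The group from 1136344 to 1155146 held 2 domains that replicate 1 covered almost wholly (100% and 97.5%) and replicate 2 to 54.1% and 54.7%. In the last group, from 1191616 to 1314104, 14 combined regions covered 47.8% of 122.5 kb. Its first domain, from 1191616 to 1201322 (9707 bp, 0.94), lay to 93.9% in replicate 1 and to 99.5% in replicate 2 regions. The domain from 1255634 to 1261830 (6197 bp, 0.46) was one in which replicate 2 covered more, at 72.4% against 32.8% in replicate 1.

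The 10 widest combined domains made up 119.5 kb, or 31.1% of the marked length. Replicate 1 covered between 55.4% and 100% of each (median 91.0%) and replicate 2 between 27.9% and 97.5% (median 67.1%). Of the 5 combined regions with the highest scores, only that from 875904 was also among the 10 widest. The highest-scoring combined region, from 101598 to 102598 (log2 score 1.70), was only 1001 bp wide, had no base in either replicate list and was the first combined region from the left end. The next 4 were the domains already given from 1191616, 875904, 1032876 and 799974, with log2 scores between 0.87 and 0.94 and widths between 7467 and 9829 bp. The widest replicate 1 regions after that from 935446 began at 1057388 (11904 bp), 134145 (10122 bp), 1191713 (9119 bp) and 1032641 (8703 bp). Those of replicate 2 after that from 936302 began at 381877 (11485 bp), 1191668 (9694 bp), 1033683 (7597 bp) and 492309 (6979 bp). By score, the replicate 1 regions that followed the highest began at 633695 (1.07), 381887 (1.05), 1191713 (1.04) and 935446 (1.03). In replicate 2 they began at 1033683 (0.91), 1191668 (0.89), 800436 (0.88) and 457833 (0.83).

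**Figure D2:**
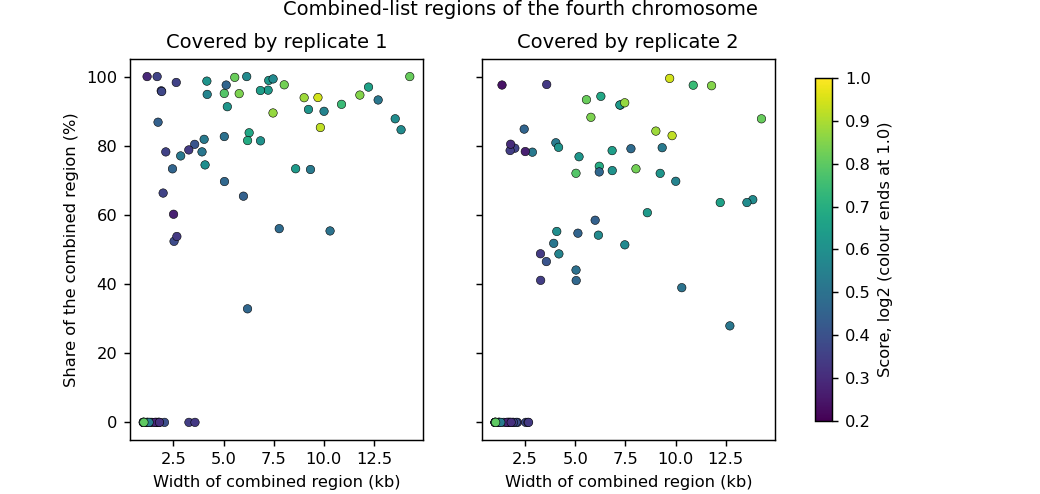
Each point is 1 of the 79 combined regions of the fourth chromosome, with its width (kb) on the horizontal axis and the share of it (%) that replicate 1 (left) or replicate 2 (right) covered on the vertical axis, coloured by its log2 score. All 35 regions of at least 5 kb lie above 0% in both panels, and the widest region at 0% in either panel is 3577 bp wide.

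Most regions that one replicate placed on the fourth chromosome had a counterpart in the other. Of the replicate 1 regions 56 of 68 (82.4%, 95% Wilson interval 71.6 to 89.6) had at least 1 bp in a replicate 2 region, against 73.5% of all replicate 1 regions. Of the replicate 2 regions 62 of 68 (91.2%, 82.1 to 95.9) had at least 1 bp in a replicate 1 region, against 68.4% of all replicate 2 regions. These intervals count each region as a draw of its own and reflect counting error alone. Bases inside both lists amounted to 214.0 kb, with 91.6 kb in replicate 1 only and 31.8 kb in replicate 2 only. The Jaccard index (shared length divided by the length of the union) was 0.634 on the fourth chromosome, against 0.507 on 2L, 0.508 on 3L and 0.528 on 3R. Widths were not matched in any of these comparisons. Against arm regions of equal width, replicate 1 regions were shared less often (82.4%, against 86.7%) and replicate 2 regions more often (91.2%, against 76.4%).

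The overlap was one-sided, with a larger part of the replicate 2 length lying in replicate 1 regions than the reverse. Of the replicate 2 length 87.1% lay in replicate 1 regions, while 70.0% of the replicate 1 length lay in replicate 2 regions. On 2L, 3L and 3R the replicate 2 length lay in replicate 1 to between 64.7% and 65.6%, and the replicate 1 length in replicate 2 to between 69.9% and 73.0%. Entirely inside the other list were 31 of 68 replicate 2 regions (45.6%), against 14.1% of all replicate 2 regions, and 5 of 68 replicate 1 regions (7.35%), against 17.9% of all replicate 1 regions. The covered length of replicate 1 was 1.24 times that of replicate 2 on the fourth chromosome and 0.927, 0.919 and 0.899 times on 2L, 3L and 3R.

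The same asymmetry appeared at the edges of single domains. In 40 pairs neither region overlapped any other. Within these pairs, replicate 2 began a median of 266 bp farther right than replicate 1 and ended 317 bp farther left, and in 21 of them (52.5%) the replicate 2 region had both edges inside those of its partner, while the opposite held in 3 (7.50%). On 2L, 3L and 3R the share with replicate 2 inside was 16.8% to 18.7%, and the share with replicate 1 inside was 22.2% to 23.1%. Starts fell within 200 bp of one another in 9 of the 40 pairs, against 214 of 672 pairs on 2L, 269 of 770 on 3L and 310 of 899 on 3R. Ends did so in 9 of the 40, against 236, 247 and 320 pairs on these arms. In 9 cases a single replicate 1 region met several replicate 2 regions, up to 3, and in 4 cases a replicate 2 region met several replicate 1 regions. The order of the pairs was shared, with a Spearman's rho of 0.71 for scores and 0.74 for widths over the 40 pairs. No test is given because the points come from 2 libraries. Score also grew with width within each list, so the 2 values are not separate evidence. Over such pairs on 2L, 3L and 3R rho was 0.53 to 0.61 for scores and 0.62 to 0.64 for widths. Over all 66 overlapping pairs of the fourth chromosome rho was 0.57 for scores and 0.49 for widths.

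**Figure D3:**
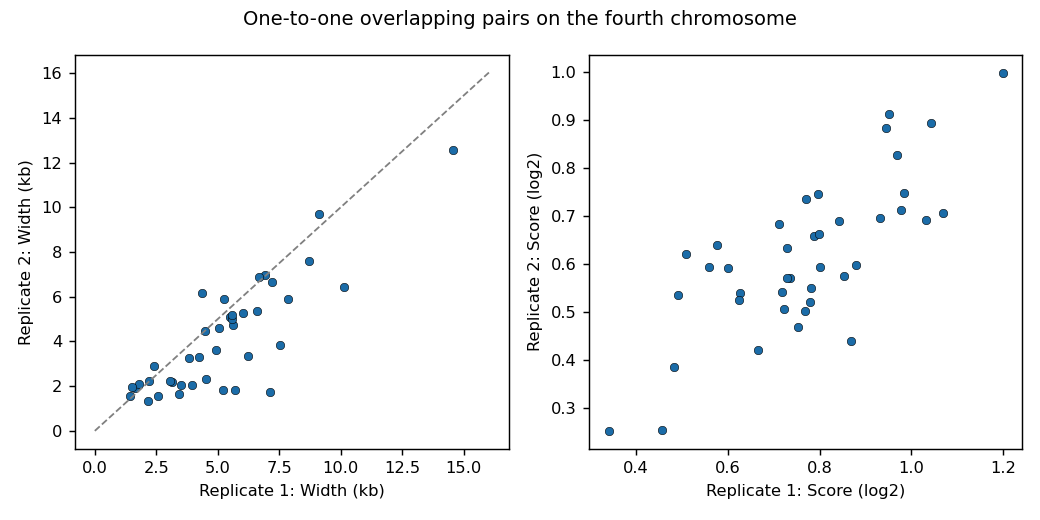
Widths (kb, left) and log2 scores (right) of the 40 pairs of regions of the fourth chromosome in which neither region overlapped another, replicate 1 on the horizontal and replicate 2 on the vertical axis. The dashed line marks equal widths, and 28 of the 40 points lie below it. Scores are on each list's own scale, so no line of equality is drawn.

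Regions found in a single replicate were mostly narrow, as they were over all sequences (median 1601 bp in replicate 1 and 1628 bp in replicate 2). The 12 replicate 1 regions without a base in replicate 2 had a median width of 1637 bp (1309 to 2799) and log2 scores between 0.43 and 0.71. They began at 60238, 302992, 321778, 374294, 489207, 500121, 541958, 690141, 712194, 900364, 981447 and 1318835. The widest was that from 489207 to 492005. Within 1 kb of a replicate 2 region lay 5 of them, and 10 of them had a base in the combined list. The other 2, from 60238 to 61815 and from 1318835 to 1320449, were the outermost regions of the chromosome in any list and had no base in the combined list. The 6 replicate 2 regions without a base in replicate 1 began at 304962, 529785, 551149, 926980, 984549 and 1285979, had a median width of 1429 bp (1345 to 3514), and all had a base in the combined list. None lay farther than 10.8 kb from a replicate 1 region.

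By the rule of 1 shared base, most combined regions on the fourth chromosome lay in both replicate lists. When 50% of the combined region had to be covered, 38 of 79 did. Of the 79, 46 (58.2%, 47.2 to 68.5) had a base in both replicate lists, against 33.3% of all combined regions. A further 9 (11.4%) had a base in replicate 1 only, against 12.3% of all combined regions, and 5 (6.33%) in replicate 2 only, against 15.9%. In neither list were 19 (24.1%, 16.0 to 34.5), against 38.5% of all combined regions. By number the share in both replicates was 31.7% to 36.2% on the 3 arms. Widths were not matched in these comparisons. Regions of at least 5 kb made up 44.3% of the combined list on the fourth chromosome, against 14.0% to 16.7% on the arms. By length, regions in both replicates held 85.6% of the combined list on the fourth chromosome and 60.8% to 66.5% on the arms. Their median width was 6558 bp, against 1199 bp for the 19 in neither. Of those 19, 12 were narrower than 1301 bp, a width below which the replicate lists hold no region. The other 7 were 1429 to 2055 bp wide. Of the 46 regions in both lists, replicate 1 covered more in 34 and replicate 2 in 12, with median shares of 88.6% and 73.7%.

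Long stretches without a combined region took up 40.5% of the chromosome. Counting the left end (101.6 kb) and the right end (37.8 kb), 10 such stretches of at least 30 kb amounted to 547.2 kb. Stretches of that length took up 26.3% of 2L, 23.0% of 3L and 20.8% of 3R (exact permutation p = 0.25 over the 4 sequences, the smallest possible). In the replicate lists the fourth chromosome was close to the arms, with 50.7% in replicate 1, against 42.9% to 51.6%, and 49.9% in replicate 2, against 37.3% to 46.8% (exact p = 0.5 for their mean). The longest was the left end from 1 to 101597, with 1578 bp of replicate 1 regions in it. It was followed by stretches of 86.2 kb from 713741 to 799973, of 68.5 kb from 807441 to 875903, of 64.1 kb from 393525 to 457613 and of 46.5 kb from 986377 to 1032875. The stretches of 86.2, 68.5 and 64.1 kb held no base of any list, and they were the longest such stretches on the chromosome, ahead of the left end from 1 to 60237 (60.2 kb) and the stretch from 986377 to 1032640 (46.3 kb). In the replicate lists the longest stretches were 86.6 kb (replicate 1) and 117.3 kb (replicate 2). At the other extreme, 17 of 78 gaps between neighbouring combined regions were under 1 kb, and the shortest was 7 bp, between regions that end at 1285990 and begin at 1285998. Such short gaps made up 21.8% of the gaps in the combined list, against 33.9% to 36.1% on the arms. They made up 14.9% in replicate 2, against 20.4% to 23.6% on the arms, and 22.4% in replicate 1, against 20.5% to 22.4%. Assembly gaps and repeats without unique reads were not analysed here, and their part in the region-free stretches was not tested.

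The fourth chromosome differed from 2L, 3L and 3R in the widths and spacing of its regions in every list, while the direction for the covered share depended on the list. Its median width averaged 3514 bp ± 1101 (SD, n = 2), against 2032 bp ± 4.95 on 2L, 2070 bp ± 11.3 on 3L and 2096 bp ± 13.1 on 3R. Regions of at least 5 kb made up 41.2% of its replicate 1 list and 17 of 68 regions of its replicate 2 list, and between 9.79% and 12.6% of the lists on the arms. Each replicate placed 50.3 regions per Mb on it, against means of 61.3 on 2L, 69.7 on 3L and 70.6 on 3R. The median gap was 7698 bp ± 366, against 3689 to 4271 bp on the arms. In each of these measures the fourth chromosome lay outside the range of the 3 arms in both replicates. An exact two-sided permutation test over the 4 sequences gave p = 0.25 for each, the smallest value that 4 sequences allow, so the design cannot reach 0.05. As the mean of the replicates the covered share lay within the range of the arms (20.4% ± 3.13, against 17.6% ± 0.937 on 2L, 20.2% ± 1.21 on 3L and 21.5% ± 1.61 on 3R, exact p = 0.75). In the combined list it lay below all 3 arms (28.4%, against 33.7% on 2L, 37.0% on 3L and 38.4% on 3R, a difference of -7.93 percentage points from their mean, exact p = 0.25, the smallest possible).

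Segments of the same length as the fourth chromosome give a finer scale. From 2L, 3L and 3R, 55 adjoining segments of 1351857 bp were taken from the left end of each arm, a comparison added after the results had been seen and given without a test. The fourth chromosome exceeded all 55 in median width in each list (combined list 3927 bp, against 1712 to 2611 bp), in Jaccard index (0.634, against 0.321 to 0.624) and in the length of replicate 1 over replicate 2 (1.24, against 0.689 to 1.11). It also exceeded all 55 in the share of replicate 2 length inside replicate 1 (87.1%, against 44.3% to 75.1%). With both ends counted, it exceeded them in the number of stretches of at least 30 kb (10, against 1 to 9). The ends are the left one of 101.6 kb and the right one of 37.8 kb, whereas segment edges mostly fall inside an arm. With the ends left out, its count falls inside the range of the segments. The margin was slight for the Jaccard index and for these stretches. Region widths were not matched between the fourth chromosome and the segments in the measures of overlap. Its covered share was inside the range of the segments, with 39 of 55 lower in replicate 1, 16 lower in replicate 2 and 10 lower in the combined list. Its longest region-free stretch (101.6 kb) was inside their range, with 32 segments below it and 23 above.

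**Figure D4:**
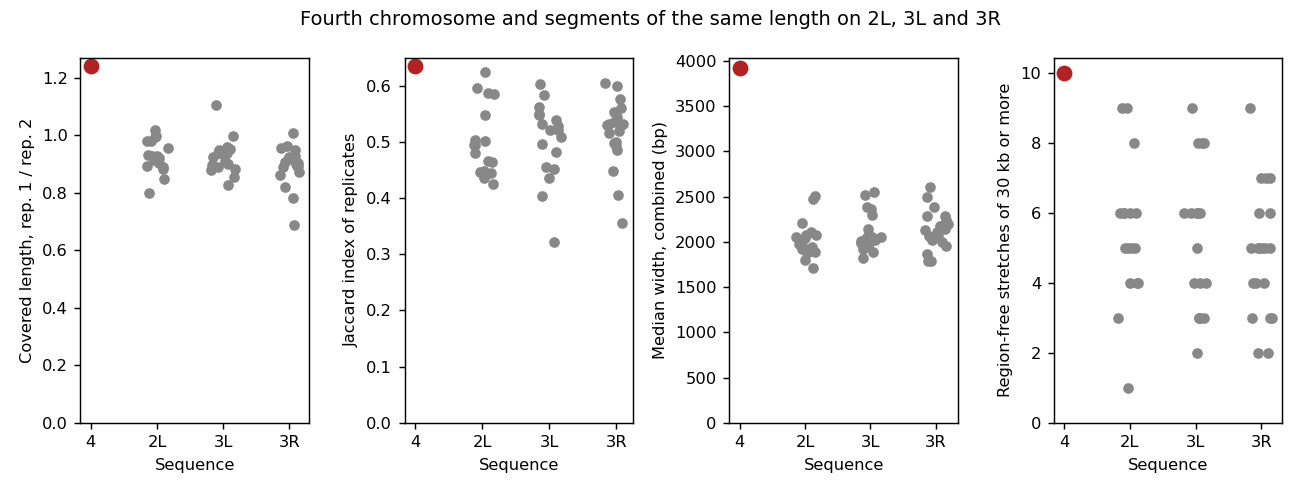
Covered length in replicate 1 over replicate 2, Jaccard index of the replicates, median width in the combined list (bp) and number of region-free stretches of at least 30 kb in the combined list. The large point is the fourth chromosome (4) and the small points are 55 segments of the same length on 2L, 3L and 3R. The fourth chromosome lies above all of them in each panel (1.24, 0.634, 3927 bp and 10). Its count of 10 includes both ends of the chromosome, and without them it falls inside the range of the segments.

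Set against regions of equal width, the domains of the fourth chromosome did not score higher. Every region of the fourth chromosome was compared with all regions of the same list on 2L, 3L and 3R whose widths were within 10% of its own, between 25 and 1279 regions each in the replicate lists. The percentile of its score was taken on each arm and averaged over the 3 arms with equal weight. The mean over regions was 39.8 for replicate 1 and 34.2 for replicate 2. Below a percentile of 50 lay 44 of 68 replicate 1 regions and 51 of 68 replicate 2 regions. For each replicate the fourth chromosome was the farthest from 50 when each of the 4 sequences was set in turn against the others (exact two-sided permutation p = 0.25, the smallest possible). The arms had mean percentiles of 56.7 to 57.0 in replicate 1 and 55.3 to 56.9 in replicate 2. Because the fourth chromosome was part of each arm's reference, these values depend on its own, and the ranking adds no separate evidence. In the combined list the mean percentile was 46.6, and 40 of 79 lay below 50 (exact p = 1.0). Without matching, the median log2 score of the fourth chromosome was higher than on all 3 arms in replicate 1 (0.72, against 0.66 to 0.67) and in the combined list (0.50, against 0.44 on each arm), and lower in replicate 2 (0.59, against 0.60 to 0.61).

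In the replicate lists the percentile was lowest for narrow regions. In replicate 1 the mean percentile was 25.6 for 16 regions under 2 kb, 36.8 for 24 of 2 to 5 kb and 50.4 for 28 of at least 5 kb. In replicate 2 it was 29.7 for 19, 34.2 for 32 and 39.1 for 17. The combined list had 40.3, 31.3 and 58.8 in the same classes. Single domains departed from this on either side. The region from 879742 to 885748 had a percentile of 99.2 at its width in replicate 1, and that from 879880 to 885143 one of 96.4 in replicate 2. At the bottom, the regions that begin at 902155, 1227683 and 1283395 scored below every width-matched region in replicate 1, as did those that begin at 205162, 891966, 1285979 and 1298432 in replicate 2. In the combined list the lowest were at the right end, where the regions that begin at 1282724, 1285998 and 1298418 had percentiles of 1.42, 0.562 and 0.151. The combined regions that begin at 204934, 902154, 1228242 and 891856 had percentiles of 61.2, 30.7, 15.3 and 8.55.

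**Figure D5:**
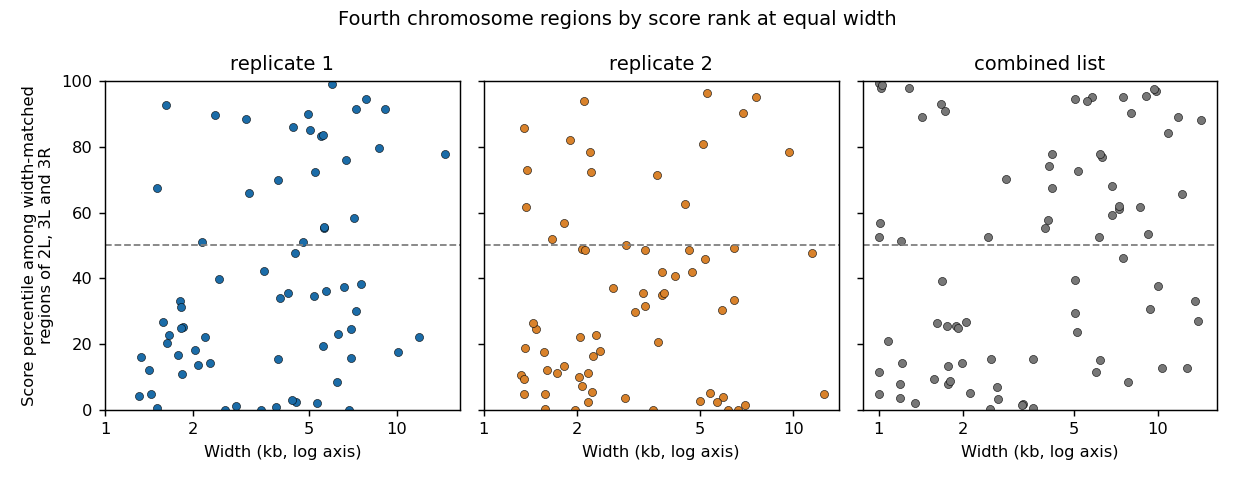
Percentile of the score of each region of the fourth chromosome among regions of 2L, 3L and 3R in the same list with widths within 10% of its own, against its width (kb, log axis), for replicate 1, replicate 2 and the combined list. Percentiles were taken on each arm and averaged with equal weight. The dashed line marks a percentile of 50. Below it lie 44 of 68, 51 of 68 and 40 of 79 points.

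Replicate sharing at equal width went in opposite directions for the 2 lists. For width-matched regions the share was averaged over the arms with equal weight. Replicate 1 regions were shared to 82.4%, against 86.7% for width-matched regions of the arms, a difference of -4.34 percentage points. Replicate 2 regions were shared to 91.2%, against 76.4% for width-matched regions, a difference of 14.8 percentage points. Each was the largest difference among the 4 sequences taken in turn (exact two-sided permutation p = 0.25, the smallest possible). For the arms the differences were 3.27 to 3.50 percentage points in replicate 1 and -9.67 to -3.68 in replicate 2. Here too the fourth chromosome was part of each arm's reference, so the ranking adds no separate evidence. The differences were largest among narrow regions. Under 2 kb, 6 of 16 replicate 1 regions (37.5%) and 15 of 19 replicate 2 regions (78.9%) were shared, against 56.1% and 45.8% of width-matched regions. At 5 kb and over, all 28 and all 17 were shared, against 99.8% and 99.7%.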

How the data were processed

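H3K79me1 was mapped by ChIP-seq in 2 ChIP and 2 input libraries. The aligner was Bowtie 0.12.7, per the submitters' processing notes. From its output the authors deposited 3 lists of enriched regions, 1 for each replicate and 1 for both combined, on FlyBase release 5, per the file headers. How regions were called and combined is not given in the sources used here. No list exists here for an input library alone. Library depth is unknown, and intervals that depend on it are not given.

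Each region's score, as deposited by the authors, is treated as log2. Raised as a power of 2, differences from the most frequent score gave ratios of whole numbers (denominators up to 5000, relative tolerance 1e-11) for 99.3%, 99.9% and 96.9% of regions in the replicate 1, replicate 2 and combined lists, against at most 1.18% on natural log or log10 scales. The 1 region named as depleted, on 3R, was left out.

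Overlaps, gaps, windows and widths came from pandas 2.3.3, numpy 2.4.6 and scipy 1.17.1 under Python 3.11.15, and matplotlib 3.10.9 drew the figures. A base in common counted as shared. Sequences were compared by exact permutation over the fourth chromosome, 2L, 3L and 3R. The scripts were tested on simulated lists. Regions named one by one were the 10 widest and 5 highest-scoring of the combined list, the 5 widest and 5 highest-scoring of each replicate, those in a single replicate and the 5 longest gaps; other domains and lower-ranked gaps were added after their values had been seen. The members, measures and alternatives were chosen with earlier results of these data known. Alternatives were other overlap rules, the higher-scoring 50% of regions, merging within 1000 bp, other width tolerances, arms and windows, and each replicate alone.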

Additional observations from a re-analysis of the deposited data

How the results depend on the processing

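The covered share of the fourth chromosome, 20.4% as the mean of the replicates, ranged from 18.2% to 22.6% over single replicates and was 15.8% for bases in both lists and 13.7% for the higher-scoring 50% of regions. Its difference from the mean of 2L, 3L and 3R, 0.641 percentage points, reversed to -2.46 without replicate 1, was 3.74 without replicate 2, and kept its sign under the other alternatives. The median width was 4967 bp for the higher-scoring 50%, and stayed above the arms under all 4 alternatives run (668 to 2229 bp above over single replicates). The shared part of replicate 1 regions was 70.6% when 50% of the region had to be covered, 63.2% when 50% of both had to be, and 61.5% for the higher-scoring 50%. For replicate 2 regions it was 63.2% under the rule on both. The Jaccard index was 0.490 for the higher-scoring 50%. Combined regions in neither replicate numbered 7 at widths of at least 1301 bp and 6 in the higher-scoring 50%. The highest window reached 45.0% at 200 kb. The rank correlation of scores between replicates (Spearman) was 0.78 for pairs with 50% of both covered and 0.71 where neither region met another. The narrower lists hold fewer regions by construction, and otherwise the cause was not tested. Of 55 alternatives over 15 results, 41 left the value on the same side or within its spread. Over single replicates, stretches of at least 30 kb numbered 12 to 14, the longest was 86.6 to 117.3 kb, and the score percentile at equal width was 34.2 to 39.8. No paired analysis was possible because neither input library has a region list to set beside its ChIP library. Unknown depth limits every comparison between the replicate lists.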
